A study of Mus musculus with 2 samples.

Results

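The genes described here act on glucose and fructose inside the hepatocyte, from the trapping of the sugar to the entry of pyruvate into the mitochondrion. There were 8 of them, taken by name from the 20652 genes that the array could be matched to: Gckr, Khk, Pfkl, Pfkfb1, Pfkfb3, Pklr, Pdk2 and Pdk4. They were measured by 9 probes, 2 for Pfkfb3 and 1 for each of the others, and all 8 had a probe well above background on both arrays. The glucokinase gene itself is not analysed here, so the first step of the pathway is represented only by its regulatory protein.

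Liver RNA came from male mice in 2 nutritional states. The fasting group had been without food overnight, for 16 h by one label and for 14 to 16 h by another, and the feeding group is labelled in one place as fed at will and in another as fed after a fast. The study used C57BL/6 J mice of about 8 to 12 weeks, and no transgene, knockout or drug is named for either group. RNA of 3 mice was pooled per group and hybridised to 1 Agilent Whole Mouse Genome array, so there is no replicate of either state, no test of the difference and no SD between mice. A difference in liver RNA cannot tell apart fewer cells of a type and less RNA per cell.

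Hepatic glycolysis is switched by the meal. Glucokinase, held in the nucleus by the protein that Gckr encodes, traps glucose. Phosphofructokinase, of which Pfkl is the liver subunit, commits it, under the control of fructose 2,6-bisphosphate, which the bifunctional enzymes of the Pfkfb family make and degrade. Pklr encodes the liver pyruvate kinase, the last step. Khk encodes ketohexokinase, which phosphorylates fructose and so feeds carbon in below the phosphofructokinase step. Pdk2 and Pdk4 encode kinases that inactivate pyruvate dehydrogenase and so keep pyruvate from oxidation.

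The promoters of the genes with the clearest differences in each direction are shown first, Pklr and Khk for the higher ones and Pdk4 for the lower, to let the regulatory letters be read beside the values. They are the 250 bases before the annotated start, 5′ to 3′ on the gene's strand, from RefSeq on GRCm38.p6. Capitals mark a match to any of the motifs named afterwards. The Pklr sequence lies at chr3:89136373-89136622 on the plus strand, before the downstream of its 2 annotated starts, which is the start of the liver type transcript. The Khk sequence lies at chr5:30921309-30921558 on the plus strand, and the Pdk4 sequence at chr6:5496279-5496528 on the minus strand.
Pklr: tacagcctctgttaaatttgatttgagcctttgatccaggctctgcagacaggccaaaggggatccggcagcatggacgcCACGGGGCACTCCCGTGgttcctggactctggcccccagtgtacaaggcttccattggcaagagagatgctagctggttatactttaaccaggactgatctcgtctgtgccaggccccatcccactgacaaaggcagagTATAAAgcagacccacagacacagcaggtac
Khk: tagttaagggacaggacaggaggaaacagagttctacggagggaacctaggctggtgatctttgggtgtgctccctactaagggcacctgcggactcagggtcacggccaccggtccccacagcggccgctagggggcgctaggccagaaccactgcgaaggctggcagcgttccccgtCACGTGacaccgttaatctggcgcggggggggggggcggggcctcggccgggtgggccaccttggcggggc
Pdk4: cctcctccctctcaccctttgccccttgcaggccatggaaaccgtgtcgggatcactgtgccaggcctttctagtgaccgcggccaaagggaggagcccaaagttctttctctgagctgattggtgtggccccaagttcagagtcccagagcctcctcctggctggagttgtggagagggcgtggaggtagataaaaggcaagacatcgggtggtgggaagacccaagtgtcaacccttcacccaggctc

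The first run of capitals in Pklr, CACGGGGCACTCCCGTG, at positions -170 to -154 from the start, matches the consensus of the carbohydrate response element, the paired E-boxes that ChREBP binds with its partner Mlx. This consensus was met by 1 of the 14 promoter windows annotated for the 8 genes, and by 32 of the 32851 promoter windows of the whole annotation, or 0.0974%. The second run in Pklr, TATAAA at positions -31 to -26, matches the TATA box, as do 12.4% of all windows, among them 1 of the 4 of Pfkfb1. The capitals in Khk are the palindromic E-box CACGTG, at positions -71 to -66. That E-box was found in 3 of the 14 windows, for Khk, for Pdk2 and for the downstream start of Pfkfb3, and in 6.02% of all windows. No motif searched was found in the Pdk4 window. The search, on both strands, also took the forkhead site TGTTTAC (3.17% of all windows), the sterol regulatory element TCACNCCAC (1.05%), the direct repeat bound by PPAR (0.0335%) and the palindrome bound by HNF1 (0.00913%), none of which was in any of the 14 windows, and the glucocorticoid receptor hexamer TGTTCT (16.1%), which was in that of Gckr. These are letter matches in a short window and do not show that a factor was bound. Only the set letters of each motif were searched, so a site that departs from them is missed. A window without a match, for HNF1 or another factor, may still hold a site.

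The values that follow are quantile-normalized signals of the 2 arrays, in intensity units, and differences are feeding minus fasting on the log2 scale. Signals of different probes are not compared with each other, since each probe binds its own target with its own strength. Upon feeding, Pklr was at least 2-fold higher, and Pdk4 and Pfkfb3 were at least 2-fold lower. That is 1 of 8 genes higher, where 3.29% of all 16346 genes measured were past 2-fold higher, and 2 of 8 lower, where 4.62% of all genes were past 2-fold lower. With so few genes these counts describe the 8 and say nothing of the pathway as a class. At 1.5-fold, Khk joined the higher genes and Pfkfb1 the lower, giving 2 of 8 higher (10.5% of all genes) and 3 of 8 lower (10.6% of all genes). Gckr, Pfkl and Pdk2 stayed within 1.5-fold. The median difference of the 8 genes was -0.16, against 0.0 over all genes measured.

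**Figure D1:**
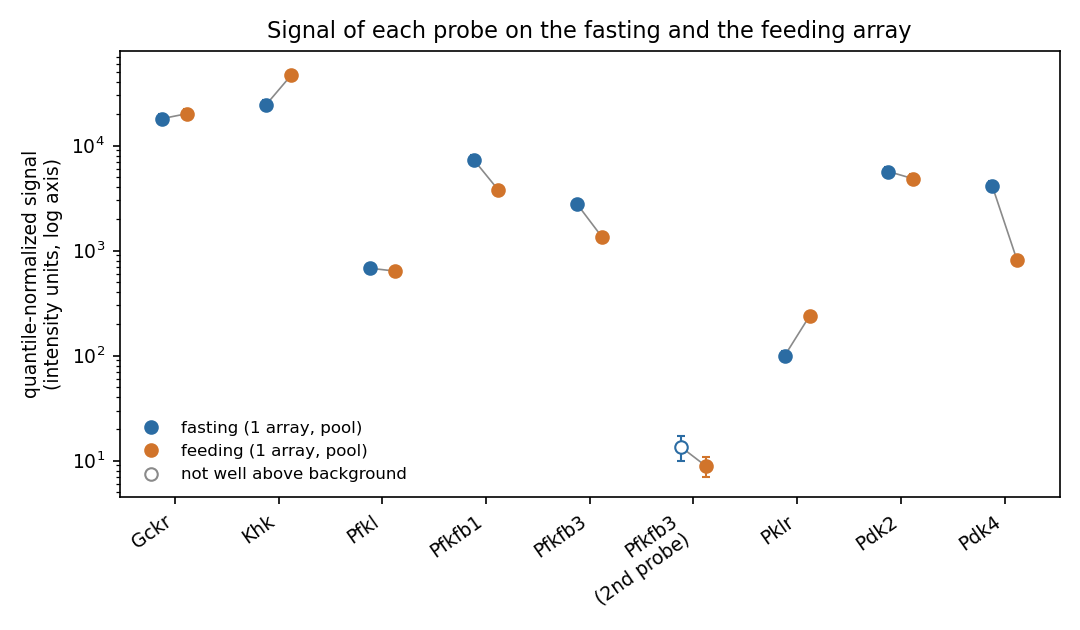
Quantile-normalized signal (intensity units, log axis) of each probe of the 8 genes on the fasting array (blue) and the feeding array (orange), each a pool of 3 mice. Bars are the error that the scanner software gives for the spot (hidden by the point except for the second Pfkfb3 probe), open circles are probes not well above background, and the grey line joins the arrays. The steepest line is that of Pdk4, from 4157 to 811.6, and Gckr, Pfkl and Pdk2 are nearly level.

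Gckr encodes the glucokinase regulatory protein, which binds glucokinase in the nucleus when glucose is low and releases it after a meal. Its signal was 18079 on the fasting array and 20146 on the feeding array. The difference was 0.16, where replicate spots of similar brightness on the same arrays gave an SD of 0.05 for such a difference. The 2 states were thus nearly level for Gckr, and 65.6% of all genes measured differed by more. Scaling to the array's median instead of quantiles made it 0.38.

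Khk had a signal of 24496 upon fasting and 46562 upon feeding. The probe was among the bright ones on both arrays and the feeding array was the higher. The difference was 0.93, or 1.90-fold, with an SD between replicate spots of 0.06, and 3.96% of all genes had a larger increase. Khk fell just short of 2-fold here, and was past it when the arrays were scaled to their median (1.13) or to their 75th percentile. A single probe, for the transcript NM_008439, measured the gene, and the files do not tell whether it separates the splice forms that encode ketohexokinase A and C.

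Pfkl, the liver subunit of phosphofructokinase, had signals of 679.4 upon fasting and 638.4 upon feeding. The difference of -0.09 was close to the SD between replicate spots of 0.07. Its direction depended on the scaling, since scaling to the median made it 0.02. For the subunit gene at the committed step, then, no difference was detectable between these arrays.

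The bifunctional enzymes, in contrast, were lower upon feeding. Pfkfb1, the liver isoform, whose kinase side is switched off by glucagon through phosphorylation, went from 7357 upon fasting to 3764 upon feeding. The difference was -0.97, or 1.95-fold lower, with an SD between replicate spots of 0.05, and 4.94% of all genes had a larger decrease. Pfkfb3, the isoform with the strongest kinase side, went from 2757 to 1340 with its bright probe, for the transcript NM_001177753. The difference was -1.04, or 2.06-fold lower, with an SD of 0.07. So Pfkfb3 lay just past 2-fold and Pfkfb1 just short of it, and their differences between the states in turn differed by 0.07, less than the SD of 0.09 that replicate spots give for such a comparison.

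The second probe of Pfkfb3, for the transcript NM_133232, had a signal of 13.5 upon fasting, where it was not well above background, and of 8.88 upon feeding. No fold is given for it, since the array on which it was not well above background had the higher value. The lower value of Pfkfb3 upon feeding therefore rests on 1 probe. With the mean of both probes, the dim one counted at no difference, it was -0.52. Scaling to the 75th percentile gave -0.98 and to the median -0.86, and none of these is past 2-fold.

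Pklr had a processed signal of 107.8 upon fasting and 224.0 upon feeding before normalization, and of 99.8 and 238.6 after it. The feeding array was the higher on either scale. The single probe of Pklr is assigned to the transcript NM_013631, and whether it reads the liver type transcript, the other form or both was not checked, since the probe's sequence is not used here. The same holds for the forms of Pfkfb1 and Pfkfb3. The difference was 1.26, or 2.39-fold, with an SD between replicate spots of 0.10, and 1.76% of all genes had a larger increase. The probe was dim, with a local background of 30.0 on the fasting array. Under the normexp background correction the difference was 0.78, which is not past 2-fold. That setting also adds an offset of 50 to each signal, which by itself shrinks the difference of a dim probe. How much of the drop is due to the offset was not separated. Compared with Gckr on the same arrays, Pklr was higher by a further 0.91 before any scaling, with an SD of 0.11 for such a comparison. A factor applied to a whole array cancels in this gap, so the absence of scaling adds no support. The Gckr probe was bright, so the gap does not check the background of the dim Pklr probe. Under the normexp correction Pklr differed by 0.78 and Gckr was also higher upon feeding, so the gap there was smaller than 0.91.

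Pdk2 and Pdk4 encode kinases of the same target, and their values parted. Pdk2 went from 5659 upon fasting to 4829 upon feeding, a difference of -0.23 with an SD between replicate spots of 0.05, which shrank to -0.03 when the arrays were scaled to their median. Pdk4, the isoform that fasting is known to induce, went from 4157 to 811.6. The difference was -2.36, or 5.12-fold lower, with an SD of 0.07, and 0.587% of all genes had a larger decrease. Pdk4 stayed between -2.36 and -2.19 under each of the 8 settings tried. The gap between both kinases was 2.13, and 2.16 before any scaling. A factor applied to a whole array cancels in such a gap, so the closeness of these values adds no support.

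**Figure D2:**
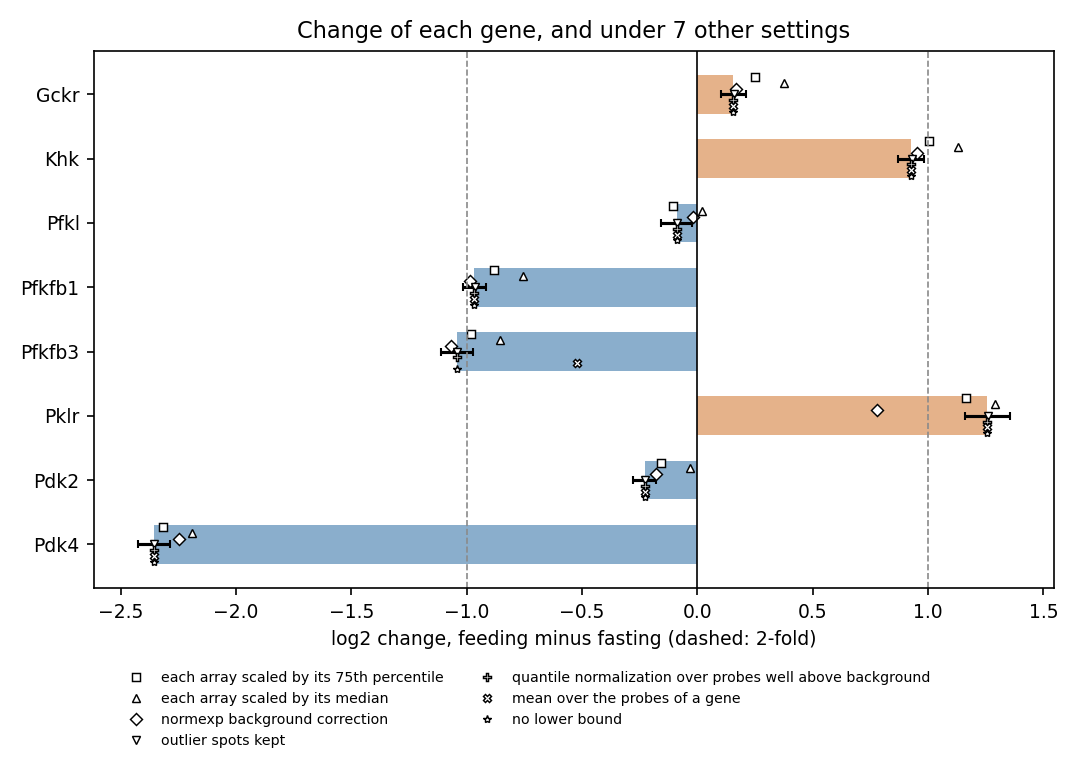
Difference of each gene, feeding minus fasting on the log2 scale, as a bar from 0, with the SD of a difference between replicate spots as the error bar and the value under 7 other settings as symbols. Dashed lines mark 2-fold. Pdk4 is past the line under each of the 8 settings and Pklr under 7, falling short with the normexp correction (0.78). Pfkfb3 is past it under 5, and nearest to 0 at -0.52, Khk under 2, and Pfkfb1 under 0 (-0.99 to -0.76).

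For the probes that carry the values above, the error that the scanner software assigns to a spot was larger than the spread of replicate spots. It was 10.0% to 10.5% of their signal, and 26.9% and 21.6% for the second Pfkfb3 probe. Carried over to a difference between the arrays, the error of that second probe was 0.50 on the log2 scale, below its replicate spot SD of 0.61. For the probes that carry the values it amounts to 0.20 to 0.21. Set against it, the differences of Pdk4, Pklr, Pfkfb3, Pfkfb1 and Khk were several times the error. Those of Gckr and Pfkl were within it, and that of Pdk2 was about its size. The software assigned nearly the same percentage to each of these probes, so this error is not a spread measured on replicate spots. Neither error includes the differences between mice.

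The isoenzymes of each step give a nearer comparison. Of the other pyruvate dehydrogenase kinases, Pdk1 differed by 0.21 and Pdk3 by -0.03, so that of the 4 kinases Pdk4 alone was past 2-fold on these arrays. Among the other bifunctional enzymes, Pfkfb2 went from 896.8 upon fasting to 402.0 upon feeding, a difference of -1.16, and Pfkfb4 differed by -0.23. Pfkfb1, Pfkfb2 and Pfkfb3 thus lay between -1.16 and -0.97. The muscle and platelet subunits of phosphofructokinase, Pfkm and Pfkp, differed by 0.16 and 0.08, where Pfkl was at -0.09. The other probe of Pfkp was at 0.51. Pkm, which encodes the pyruvate kinase of most other tissues, differed by -0.12 where Pklr was at 1.26.

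Of 26 other glycolytic genes, all measured, 0 were past 2-fold higher and 1 lower, Pfkfb2, and their median was 0.11 (from -1.16 to 0.94). Over all genes 3.29% were past 2-fold higher and 4.62% lower, so these counts do not set the list apart. Past 1.5-fold higher were 3 of the 26, where 10.5% of all genes were, named after their values were seen. These were Tigar, which degrades fructose 2,6-bisphosphate (0.94), Bpgm, the bisphosphoglycerate mutase (0.76), and Gpi1, the glucose phosphate isomerase (0.76).

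The list of 11 other genes of fructose, polyol and triose use shares 1 with the glycolytic genes. As written it also holds Hacl1, a peroxisomal lyase of fatty acids that lies outside these routes. Of the 11, 3 were past 2-fold higher and 1 lower, beside the same 3.29% and 4.62% of all genes, with a median of -0.01. No test compared this list with the others. Tkfc, which encodes the triokinase further down the route of fructose, went from 15395 upon fasting to 50696 upon feeding, a difference of 1.72, or 3.29-fold. So both kinases of the route, Khk and Tkfc, were higher upon feeding, Khk short of 2-fold and Tkfc past it. Gpd2 and Gpd1, the mitochondrial and the cytosolic glycerol 3-phosphate dehydrogenases, were higher by 1.20 and 1.01. Gk, the glycerol kinase, was lower, at 4479 upon fasting and 1649 upon feeding, a difference of -1.44.

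Beyond pyruvate, of 16 other genes for its entry and oxidation none was past 2-fold in either direction, and the median was 0.14. The largest differences in size were those of Pdp1, a phosphatase that reactivates pyruvate dehydrogenase, at 0.71, and of citrate synthase, Cs, at 0.67. The probes of Pdp1 ran from 0.25 to 0.71. Among the genes measured for this step, Pdk2 and Pdk4 included, Pdk4 had the largest difference.

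Of 26 regulators known to act on these genes, 2 were past 2-fold higher and 5 lower, again beside 3.29% and 4.62% of all genes. Srebf1, which encodes the lipogenic factor that insulin induces, went from 191.3 upon fasting to 1703 upon feeding (3.15), and Klf10, a zinc finger factor, differed by 1.04. Ppargc1a, a coactivator of fasting genes, went from 1400 to 146.1 (-3.26), and Foxo1, the factor that insulin expels from the nucleus, differed by -1.12. Irs2, a docking protein of the insulin receptor, differed by -1.08 with its 1 probe, which was dim (148.8 upon fasting and 70.5 upon feeding). For Usf2, an E-box factor (-1.26), and Mlxip, the relative of ChREBP also called MondoA (-1.04), the probes disagreed, with others at -0.08 and -0.04. Mlxipl, which encodes ChREBP, differed by 0.83 with its brightest probe and by 0.14 with the other.

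**Figure D3:**
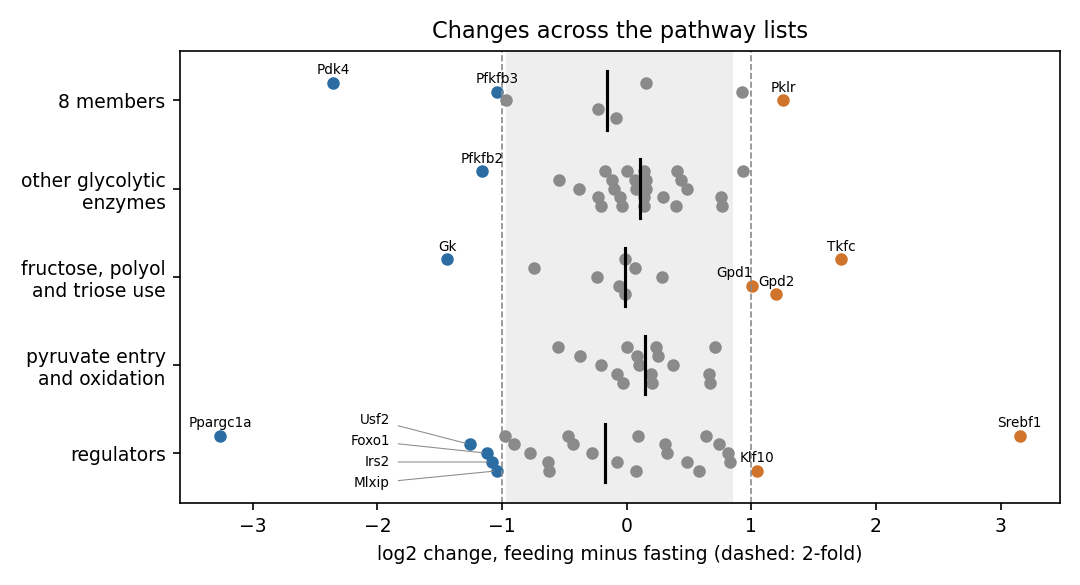
Difference, feeding minus fasting on the log2 scale, of the 8 genes and of the measured genes of 4 lists, with 1 point per gene and a black bar at each median. The grey band spans the 5th to the 95th percentile of all genes measured (-0.96 to 0.84), and genes past the dashed 2-fold lines are named. Most points of the glycolytic and pyruvate lists lie within the band.

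The tissue label was checked against marker genes. All 10 hepatocyte markers were well above background on both arrays, and their summed signal differed by -0.11 on the log2 scale. The summed signals of Kupffer cell, endothelial and stellate cell markers differed by -0.39, -0.36 and -0.35, with 7 of 7, 6 of 6 and 6 of 6 markers measured. The medians of these lists were -0.22, -0.33 and -0.12. Marco of Kupffer cells went the other way (0.20), as did Lrat (0.24) and Pdgfrb (0.17) of stellate cells. Des of stellate cells was not well above background upon fasting and gave no fold. The summed shifts run in the direction of the Pfkfb3, Pfkfb1 and Pdk4 values and are smaller, and their part in them was not tested. Of the 6 skeletal muscle markers, 5 were not well above background upon fasting, and only Ckm was not upon feeding. The lowest signal well above background was 14.4 upon fasting and 6.55 upon feeding, so these counts are not on a like footing. Acta1 failed at 15.6 upon fasting and passed at 10.7 upon feeding. The summed signal of the muscle markers was 98.1 upon fasting and 119.2 upon feeding, most of it from Tnni2 (69.6 and 76.2). Of the 5 adipocyte markers, Adipoq and Lep were not well above background on either array, and Plin1 was not upon fasting. The summed signal of the adipocyte markers was 136.5 upon fasting and 250.6 upon feeding, most of it from Cfd alone (116.8 and 217.0). The red cell markers were level (-0.06 for their sum). Single markers past 2-fold were Sox9 (2.11) among the 5 of cholangiocytes and Pecam1 (-1.04) of endothelium, and 2 of the 5 of exocrine pancreas, whose summed signal was 67.0 and 53.7. The part of these in the results was not tested.

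The arrays differed in quality. The local background had a median of 30.0 upon fasting and 22.0 upon feeding, 63.1% and 72.3% of spots other than controls passed the scanner's background test, and no spot was saturated. The pair shared 1 slide and 1 scan, so slide and scan do not separate the groups, and position on the slide and group cannot be told apart.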

How the data were processed

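The authors labelled pooled total RNA with Cy3 and hybridised it to the 4x44K array. Per the file headers and the study's methods, Agilent Feature Extraction 11.0.1.1 then gave for each spot an intensity, the processed signal, corrected for background and not normalized between arrays. The deposited value table of the series equals the mean local background of the same spot in all 44397 spots of each array (within a relative difference of 1e-06), so it was not used.

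Outlier spots and the 1377 control spots were left out, log2 processed signals were averaged per probe and the 39402 probes were quantile normalized, as the methods state. Of these, 27218 (69.1%) were named by their RefSeq transcript in the GRCm38.p6 table. The array design names another build, so no probe positions are given. Promoter coordinates are those of RefSeq on GRCm38.p6. The brightest probe, by its mean over both arrays, stood for a gene. Probes not well above background on 1 array gave a lower bound, against the higher of their own signal and the lowest signal well above background. The threshold of 2-fold is that of the methods. With 1 array per group no test was run, and the number of arrays limits the precision.

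The SD between replicate spots comes from the 50 probes nearest in signal among the 389 probes spotted about 10 times. The normexp correction (limma 3.58.1, R 4.3.3) used an offset of 50 on the median signals. The other alternatives were scaling by percentile or median, other filters, thresholds of 1.5-fold and 3-fold, and the mean of a gene's probes. The 2-fold calls were tried on simulated data. They took 59 of 59 genes changed 4-fold, 58 of 59 changed 2.5-fold, 0 of 64 changed 1.5-fold and 11 of 14452 left unchanged. With 1 array per group the simulation could not draw on differences between mice. It does not show whether the calls would hold in other mice.

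The 8 genes and all lists were chosen with earlier results of these data known. Named genes are the 8, list genes past 2-fold and otherwise the 2 largest of a list. The other isoenzymes, Mlxipl, Tigar, Bpgm and Gpi1 were named after their values were seen. Results of 1 list gene are not reported here, and it stays in the list counts.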

Additional observations from a re-analysis of the deposited data

How the results depend on the processing

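With each array scaled by its 75th percentile or by its median, 2 of the 8 genes were past 2-fold higher (Pklr and Khk) and 1 lower (Pdk4), in place of 1 and 2. The normexp correction left 0 past 2-fold higher, and with the mean over a gene's probes 1 was lower. At 1.5-fold 2 were higher, and at 3-fold 0 were higher and 1 lower. With scaling by the median, 1 other glycolytic gene was higher in place of 0, and 4 regulators were higher and 3 lower in place of 2 and 5. Under normexp 0 glycolytic genes and 3 regulators were lower. At 1.5-fold, 3 of 26 glycolytic genes were higher, 2 of 11 fructose and triose genes lower and 3 of 16 genes of pyruvate use higher. Of 26 regulators, 6 were higher and 10 lower at 1.5-fold. Over all genes, 10.5% were past 1.5-fold higher and 10.6% lower. At 3-fold, 0 glycolytic genes were lower, 1 fructose and triose gene was higher and 0 lower, and 1 regulator was higher and 1 lower. Among all 16346 genes measured, 537 were past 2-fold higher and 756 lower, against 1714 and 1737 at 1.5-fold, and 158 and 311 at 3-fold. At 2-fold, the counts were 215 and 312 under normexp, and 717 and 649 with scaling by the median. They were 838 and 1185 without a filter on dim probes, and 876 were higher without the lower bound. The thresholds set their differences by construction. So do the filter on dim probes, which takes genes out of the counts, and the lower bound, which can only shrink or remove a difference. The offset of 50 added under normexp shrinks the differences of dim probes, and its share was not separated from the rest of that correction. The cause of the other differences was not tested.

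Under the 8 settings run for them, none of the 8 genes changed direction except Pfkl, at 0.02 with scaling by the median. Probes could not be named by a gene name from the files, since those used here hold no such column, so that alternative was not run. No paired analysis was possible because each group has 1 array. Leaving out a replicate was not possible for the same reason.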
